A study of Mus musculus with 8 samples.

Results

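The IL-1 and IL-18 receptor family was followed through donor T cells with and without STAT3. The family was taken as 8 of the 25078 genes in the deposited tables, matched by gene symbol: Il1r1, Il1r2, Il1rl2, Il1rl1, Il18r1, Il18rap, Il1rap and Sigirr. It was chosen by a measured value, the near loss of Il1r1 in STAT3ko T cells of these same libraries, and the question was whether the 7 relatives, 5 of which lie beside Il1r1 on chromosome 1, moved with it. The values of Il1r1 are therefore given as a description without a test in every comparison, whereas the relatives were tested.

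RNA was sequenced from T cells of C57BL/6 donors. The cells were sorted from the spleen of irradiated BALB/c recipients, all labelled WT, on day 6 after hematopoietic cell transplantation (HCT). All recipients also received T cell-depleted bone marrow of WT C57BL/6 donors. The T cell donors were WT or STAT3ko, the latter carrying floxed Stat3 alleles and a Cre recombinase under Cd4 regulatory sequences, which act in the common precursor of CD4 and CD8 T cells so that both subsets lose the floxed part of Stat3. The 8 libraries form 4 groups of 2, namely CD4 T cells of WT donors, CD4 T cells of STAT3ko donors, and the CD8 T cells of each. According to the methods a library holds sorted donor-type cells pooled from 3 recipients, so the p-values measure the spread between pools. In the reported fit that spread includes shifts shared by libraries of the same replicate number, which the fit does not separate. WT donors carrying the Cre are not described in the methods, and the age of the mice is not given in the sources used here.

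Receptors of the IL-1 family work as pairs. A ligand-binding chain engages its cytokine and then recruits an accessory chain, and the Toll/IL-1 receptor domains of the pair bring in the adaptor MyD88 and the IRAK kinases, which lead to NF-kB. Il1r1 encodes the signalling receptor for IL-1, Il1r2 a decoy that binds IL-1 without signalling, Il1rl2 the receptor for IL-36, Il1rl1 the IL-33 receptor ST2, and Il18r1 and Il18rap the binding and accessory chains for IL-18. Il1rap encodes the accessory chain shared by the IL-1, IL-33 and IL-36 receptors, and Sigirr an inhibitory member. In T cells, IL-1 signalling is known for its part in the Th17 response, IL-18 for interferon-gamma production, and ST2 for regulatory and type 2 cells.

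The libraries held between 20171396 and 23282757 counts. TMM-scaled CPM values (counts per 1000000 counts of a library, whose size TMM corrects for composition) are given below in the order replicate 1, replicate 2. Stat3, the targeted gene, had between 428 and 436 CPM in the 4 WT libraries and between 120 and 143 CPM in the 4 STAT3ko libraries. Cd4 lay between 1361 and 1602 CPM in CD4 libraries against at most 8.16 CPM in CD8 libraries, and Cd8a lay between 819 and 984 CPM in CD8 libraries against at most 16 CPM in CD4 libraries. All 8 members passed the filter on low counts, as did 12428 genes in all.

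Of the 8 genes, 6 lie on chromosome 1 on the plus strand, in the order Il1r2, Il1r1, Il1rl2, Il1rl1, Il18r1 and Il18rap, and all are protein coding in GENCODE M21. On mm10, the build of the tables, Il1r1 spans chr1:40225080-40316177, and Il1rl2 (chr1:40324589-40367553) begins 8411 bp after its end. Il1r2 (chr1:40084714-40125230) ends 99849 bp before Il1r1. Il1rl1 (chr1:40429570-40465414) and Il18r1 (chr1:40465552-40500854) are separated by 137 bp, and Il18rap lies at chr1:40515362-40551705. Il1rap (chr16:26581705-26730128) and Sigirr (chr7:141091175-141100546) lie elsewhere. No exon base of the chromosome 1 members or of Sigirr was shared with another annotated gene, whereas 4.86% of the exon bases of Il1rap were shared with an antisense gene, Gm20319, so that the Il1rap counts are uncertain to that extent.

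Because a STAT protein dimer typically binds the letters TTCNNNGAA, which read the same on both strands, the 250 bases before each annotated start were searched for them in RefSeq (GRCm38.p6), where 7 of the 8 members matched, with 11 starts. Across all genes in that set, 7.02% of 32851 such windows held the letters, and 8.13% of 27025 genes had them in at least 1 window. Neither start of Il1r1, nor the start of Il1rl2 or of Il18rap, held a match. The windows of these 3 genes are shown because Il1r1 and its next neighbour Il1rl2 moved by very different amounts in STAT3ko T cells and Il18rap was not called; they have no capitals, which would mark a match. The plus-strand windows lie at chr1:40224830-40225079 (Il1r1, first start), chr1:40266336-40266585 (Il1r1, second start), chr1:40324339-40324588 (Il1rl2) and chr1:40515112-40515361 (Il18rap).
Il1r1, first start: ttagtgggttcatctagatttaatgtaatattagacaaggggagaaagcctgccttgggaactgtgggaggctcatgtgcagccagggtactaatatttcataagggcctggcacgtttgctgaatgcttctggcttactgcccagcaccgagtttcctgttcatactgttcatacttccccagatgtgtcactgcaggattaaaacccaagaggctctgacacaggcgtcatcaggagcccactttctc
Il1r1, second start: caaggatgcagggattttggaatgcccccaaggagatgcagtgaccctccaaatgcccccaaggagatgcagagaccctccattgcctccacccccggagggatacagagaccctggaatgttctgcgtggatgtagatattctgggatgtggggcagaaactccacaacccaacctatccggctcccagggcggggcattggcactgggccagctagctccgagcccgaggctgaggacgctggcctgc
Il1rl2: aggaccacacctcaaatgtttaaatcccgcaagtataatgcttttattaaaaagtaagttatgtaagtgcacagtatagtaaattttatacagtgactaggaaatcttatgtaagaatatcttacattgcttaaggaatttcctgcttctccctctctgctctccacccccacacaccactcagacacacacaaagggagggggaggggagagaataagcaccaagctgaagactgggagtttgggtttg
Il18rap: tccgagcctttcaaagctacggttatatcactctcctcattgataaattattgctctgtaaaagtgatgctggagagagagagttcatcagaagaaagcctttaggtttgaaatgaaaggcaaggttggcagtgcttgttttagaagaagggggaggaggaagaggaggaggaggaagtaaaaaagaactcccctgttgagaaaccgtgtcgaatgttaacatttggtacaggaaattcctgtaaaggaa

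The letters were found in the windows of 2 of the 7 matched members, in 2 of the 11 windows. Il1r2 held 1 match, whose first letter lies 111 bases before its RefSeq start (that start lies 1379 bp inside the interval of the table). Il18r1 held 2 matches, 219 and 152 bases before the last of its 3 RefSeq starts, which lies 454 bp inside the interval of the table. The matches of both genes therefore lie inside the intervals of the genes and not upstream of them. They are printed with 10 bases on either side and the matched letters in capitals, because they are the only matches in the windows searched.
Il1r2: cgggtgctttTTCAAGGAActtccgacta
Il18r1, farther match: tcggggttagTTCTGGGAActgtggagct
Il18r1, nearer match: agtacaggtcTTCCCAGAActgaaagctt
A match to these letters is a description of the sequence and was not tested for binding.

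RPKM values as deposited, which divide counts by exon length and library size, allow levels of different genes to be compared. The IL-18 receptor chains were the most abundant of the family in every group, with mean RPKM over the 8 libraries of 190.9 for Il18r1 and 129.7 for Il18rap, followed by Sigirr at 40.9 and Il1rl1 at 23. Il1rl2 (7.52), Il1r2 (6.90), Il1r1 (4.96) and Il1rap (3.22) were lower on this scale. The first 4 kept this order in each of the 4 groups, with no overlap of RPKM between neighbours in the order. In WT CD4 T cells, Il1r2 (19.2 RPKM ± 6.91 SD, n = 2) and Il1r1 (17.8 ± 3.34 SD) overlapped between libraries, and the ranges of Il1r2 and Il1rap overlapped in STAT3ko CD4 and in WT CD8 T cells. Il1r1 was the lowest of the 8 in the other 3 groups, at 0.159 RPKM ± 0.0116 SD in STAT3ko CD4, 1.78 ± 0.410 SD in WT CD8 and 0.0576 ± 0.0546 SD in STAT3ko CD8 T cells.

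**Figure D1:**
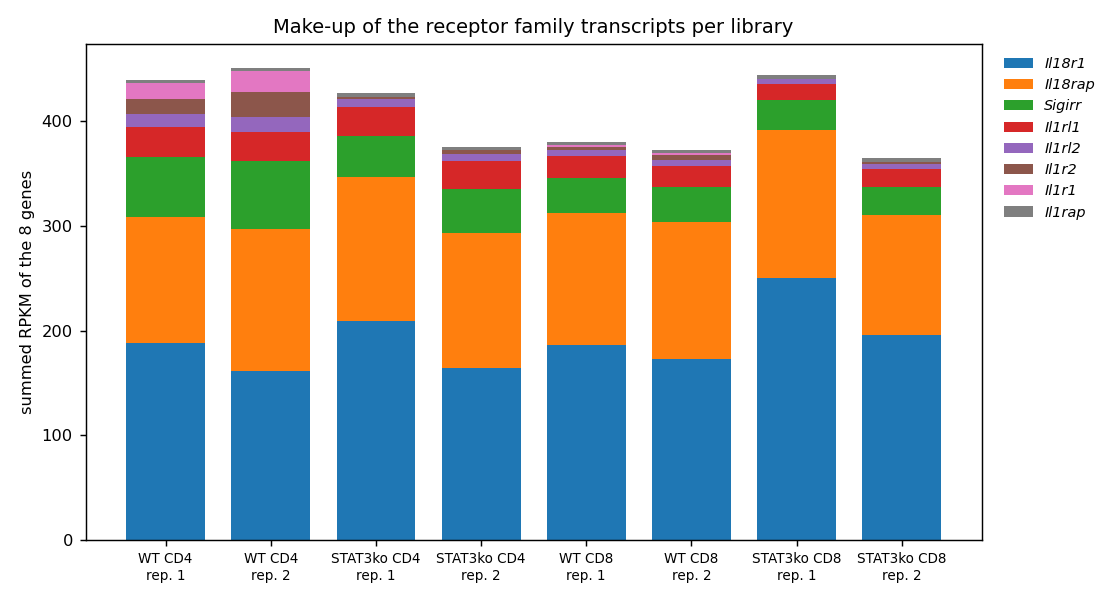
Stacked bars give the summed RPKM of the 8 genes (y axis) in each library (x axis, groups and replicates), 1 colour per gene. Il18r1 and Il18rap make up between 65.9% and 88.1% of the sum, and the band of Il1r1 can be seen mainly in the 2 WT CD4 libraries.

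Il1r1 fell close to the limit of detection in STAT3ko T cells of both subsets. It had 78.5 and 101 CPM in WT CD4 libraries and 0.850 and 0.777 CPM in STAT3ko CD4 libraries (1573 and 2133 counts against 17 and 17). In CD8 T cells it had 7.52 and 10.6 CPM in WT and 0.0965 and 0.496 CPM in STAT3ko libraries (174 and 252 counts against 2 and 11). Both STAT3ko libraries lay below both WT libraries in each subset, and the 2 counts of the first STAT3ko CD8 library lie under the 3 counts that an observed 0 would still allow. From summed counts, the level in STAT3ko came to 0.903% of the WT level in CD4 T cells (95% exact conditional binomial interval 0.624% to 1.26%) and to 3.33% of it in CD8 T cells (1.76% to 5.76%); such intervals cover counting error only. The fitted log2 fold changes were -6.78 (CD4) and -4.88 (CD8), and in the fits that left out the first or the second STAT3ko CD8 library the latter was -4.18 or -6.48. These values chose the family and carry no test. In bulk RNA, fewer cells carrying a transcript cannot be told apart from less transcript per cell.

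**Figure D2:**
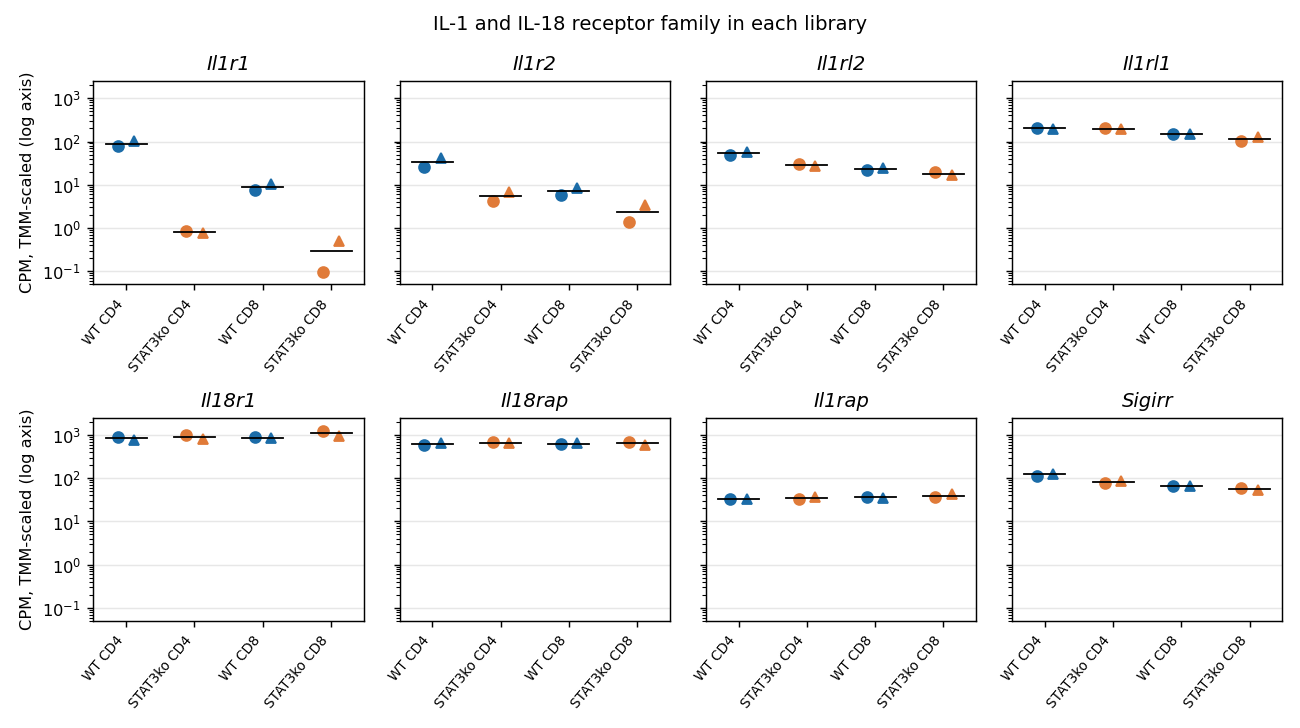
Each panel shows TMM-scaled CPM of 1 gene on a log axis in the 8 libraries, WT in blue and STAT3ko in orange, circles for replicate 1, triangles for replicate 2 and lines for group means. Il1r1 runs from 0.0965 to 101 CPM across libraries, Il1r2 from 1.35 to 41.8 CPM, and Il18rap from 576 to 697 CPM.

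Among the relatives in CD4 T cells, the decoy receptor for IL-1, the IL-36 receptor and the inhibitory member fell, while no change was called for ST2, for either IL-18 receptor chain or for the shared accessory chain. In all, 3 of the 7 relatives were called by edgeR's quasi-likelihood test at a Benjamini-Hochberg adjusted p under 0.05, all lower in STAT3ko; over all tested genes, 11.6% were called and 5.08% were called lower. The fold changes of the 7 relatives ranged from -2.58 to 0.12 on the log2 scale, against a median of 0.02 over all tested genes. Below, groups are said not to overlap where both libraries of one lie on the same side of both of the other, which with 2 libraries a group held for 53.5% of all tested genes in the CD4 and 49.7% in the CD8 comparison of STAT3ko with WT.

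Il1r2 had 25.2 and 41.8 CPM in WT CD4 and 4.25 and 6.95 CPM in STAT3ko CD4 libraries. The groups did not overlap, and the WT replicates differed from each other more than those of any other relative. Its log2 fold change, -2.58, had an SE of 0.43 and an edgeR adjusted p of 0.0104, which is a 5.96-fold lower level. The ratio of Il1r2 to Il1r1 RPKM was 0.923 and 1.19 in the WT CD4 libraries and 14.4 and 25.7 in the STAT3ko CD4 libraries. In CD8 T cells the ratio was 2.21 and 2.22 in WT and 40.2 and 19.9 in STAT3ko libraries. The high ratios rest on the near loss of Il1r1, which chose the family and had 17 counts in each STAT3ko CD4 library. They are a description without a test.

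Il1rl2 had 49.7 and 56.9 CPM in WT CD4 and 30.9 and 27.7 CPM in STAT3ko CD4 libraries, again without overlap. The log2 fold change was -0.87 (SE 0.13, edgeR adjusted p 0.00696). Sigirr, which lies on another chromosome, fell from 115 and 128 CPM to 79.5 and 87.3 CPM, with a log2 fold change of -0.55 (SE 0.11, edgeR adjusted p 0.0167). These are smaller steps than that of Il1r2, and replicate numbers 1 and 2 taken separately gave the same direction for all 3 genes.

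Il1rl1 had 205 and 195 CPM in WT CD4 and 200 and 191 CPM in STAT3ko CD4 libraries (a log2 fold change of -0.03, 95% interval -0.30 to 0.24). Counts per gene do not separate the membrane form of ST2 from the soluble form made from the same gene. Il18r1 had 904 and 763 CPM in WT CD4 and 1013 and 805 CPM in STAT3ko CD4 libraries (a log2 fold change of 0.12, 95% interval -0.24 to 0.49). Il18rap had 597 and 661 CPM in WT CD4 and 678 and 646.5 CPM in STAT3ko CD4 libraries (0.07, -0.21 to 0.35). For these 3 genes the libraries of the 2 genotypes overlapped. Il1rap had 32.8 and 33.9 CPM in WT CD4 and 33.6 and 37.0 CPM in STAT3ko CD4 libraries, also overlapping (0.08, -0.19 to 0.35).

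DESeq2, limma at either pseudocount and the fit with the replicate block also called 3 of the 7 in CD4 T cells: Il1r2, Il1rl2 and Sigirr. Over all tested genes DESeq2 called 14.9%, the block 30.1%, and limma 1483 and 1411 of 12428. Some of these calls were lost when a library was left out, which leaves its group with 1 library. All 3 genes stayed lower in such fits. The log2 fold change lay between -2.98 and -2.18 for Il1r2, -0.99 and -0.77 for Il1rl2, and -0.65 and -0.48 for Sigirr.

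**Figure D3:**
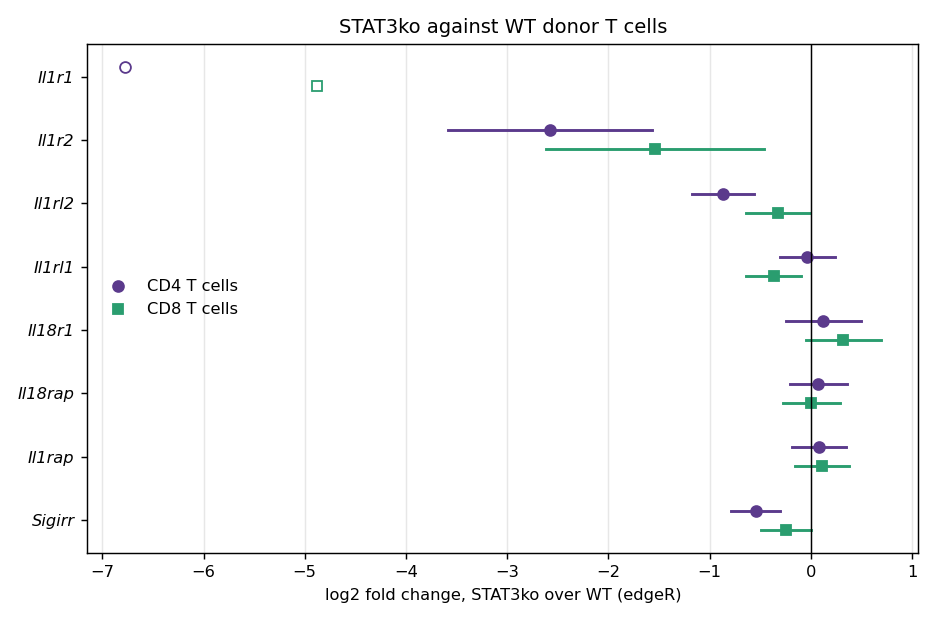
Log2 fold change of STAT3ko over WT (x axis) for each gene (y axis) in CD4 (circles) and CD8 T cells (squares), with lines for 95% intervals of the edgeR fit. Il1r1, which chose the family, is drawn hollow at -6.78 and -4.88 without an interval, and Il1r2 follows at -2.58 and -1.54.

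In CD8 T cells, Il1r2 was also lower in STAT3ko libraries by value, while for the other relatives the estimates lay between -0.37 and 0.32 on the log2 scale. None of the 7 relatives was called by edgeR (2.07% of all tested genes were). An unadjusted p under 0.05 was found for 3 of them (Il1r2, Il1rl1 and Il1rl2) and for 2400 of the 12428 tested genes. DESeq2, which called 7.12% of all tested genes, called 1 of the relatives, Il1r2 (adjusted p 0.00921). With limma on log2(RPKM + 1) or log2(RPKM + 0.1), 0 were called, with 3 at an unadjusted p under 0.05 in each, as were 2406 and 2354 of all tested genes. With the replicate number as a block, which pairs the samples here by their values and not by a label, edgeR called 18.2% of all tested genes and 3 of the 7: Il1r2 (log2 fold change -1.58, edgeR adjusted p 0.000911), Il1rl1 (-0.37, 0.0278) and Il18r1 (0.31, 0.0336).

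Il1r2 had 5.79 and 8.21 CPM in WT CD8 and 1.35 and 3.43 CPM in STAT3ko CD8 libraries, so that the groups did not overlap. Its log2 fold change was -1.54 (SE 0.46, edgeR adjusted p 0.129). Il1rl1 had 151 and 147 CPM in WT CD8 and 104 and 127 CPM in STAT3ko CD8 libraries, without overlap (-0.37 on the log2 scale, SE 0.12, edgeR adjusted p 0.144). The second STAT3ko library lay nearer to WT for both genes.

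Il1rl2 had 21.6 and 23.8 CPM in WT CD8 and 19.5 and 16.7 CPM in STAT3ko CD8 libraries (-0.33 on the log2 scale, SE 0.13, edgeR adjusted p 0.242). Sigirr had 66.1 and 67.1 CPM in WT CD8 and 58.8 and 53.8 CPM in STAT3ko CD8 libraries (-0.24, SE 0.11, edgeR adjusted p 0.265). Neither gene overlapped between genotypes, and both differences were smaller than in CD4 T cells by value.

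The IL-18 receptor binding chain was the relative with the highest estimate. Il18r1 had 891 and 842 CPM in WT CD8 and 1205 and 959 CPM in STAT3ko CD8 libraries (0.32 on the log2 scale, SE 0.16, edgeR adjusted p 0.324), again without overlap. Il18rap had 619 and 650 CPM in WT CD8 and 697 and 576 CPM in STAT3ko CD8 libraries, with WT between the 2 STAT3ko libraries (0.005, 95% interval -0.27 to 0.28). Il1rap had 37.7 and 35.1 CPM in WT CD8 and 36.6 and 42.1 CPM in STAT3ko CD8 libraries, also overlapping (0.11, 95% interval -0.16 to 0.38). The ratio of Il18r1 to Il18rap RPKM was 1.47 and 1.32 in the WT libraries of this subset, below the 1.77 and 1.70 of the STAT3ko ones. In CD4 T cells the ratio overlapped between genotypes, at 1.55 and 1.18 in WT and 1.53 and 1.27 in STAT3ko libraries.

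Whether the STAT3ko effect differed between the subsets was tested as an interaction. For none of the 7 relatives did it pass (0% of all tested genes did). An unadjusted p under 0.05 was found for 1, Il1rl2, and for 982 of the 12428 tested genes. The Il1rl2 effect in CD8 minus that in CD4 was 0.54 on the log2 scale (95% interval 0.10 to 0.98, edgeR adjusted p 0.488), that of Il1r2 1.03 (-0.42 to 2.49, edgeR adjusted p 0.823), that of Sigirr 0.30 (-0.04 to 0.65, edgeR adjusted p 0.696) and that of Il1rl1 -0.33 (-0.71 to 0.05, edgeR adjusted p 0.702). DESeq2, limma and the fit with the replicate block also called 0 of the 7, with 1, between 1 and 2, and 4 at an unadjusted p under 0.05. Over all tested genes, 875, between 1037 and 1087, and 2062 had such a p. The calls in CD4 without calls in CD8 T cells are therefore not shown to be a difference between the subsets.

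Around Il1r1, the neighbours that fell in CD4 T cells lay on both sides of it as far as Il1rl2, and none of the testable genes beyond Il1rl2 was called. The tables hold 16 genes within 500 kb of the span of the 6 chromosome 1 members, of which 8 had enough counts to test. Without Il1r1, 3 of 7 were called lower in STAT3ko CD4 T cells and 0 higher (Il1r2, Il1rl2 and Map4k4). Over all tested genes 5.08% were called lower. Il1r2 and Il1rl2 are relatives already counted above, so Map4k4 is the only call added here. In CD8 T cells 0 of 7 were called by edgeR (2.07% of all tested genes were). At an unadjusted p under 0.05 stood 4 of 7, against 2400 of 12428 tested genes. In CD8 T cells limma also called 0, DESeq2 called 2 lower (Il1r2 and Map4k4) and the fit with the replicate block called 3 lower and 1 higher. Over all tested genes DESeq2 called 7.12% and the block 18.2% in this comparison. Map4k4, a kinase gene whose start lies at -324.2 kb from that of Il1r1 and no member of the family, had 583 and 652 CPM in WT CD4 and 342 and 346 CPM in STAT3ko CD4 libraries (-0.84 on the log2 scale, SE 0.12, edgeR adjusted p 0.0059). Its log2 fold change among CD8 libraries was -0.49 (edgeR adjusted p 0.0897). Moving from Map4k4 toward Il18rap, the CD4 log2 fold changes read -0.84, -2.58 (Il1r2), -6.78 (Il1r1), -0.87 (Il1rl2), -0.03 (Il1rl1), 0.12 (Il18r1) and 0.07 (Il18rap), so that Il1r1 and Il1rl2, 8411 bp apart, differed widely in size. Mfsd9, 565.6 kb after the Il1r1 start, stood at 0.09. The other 8 genes were Creg2, Rfx8, Gm3646, 1700066B17Rik, Gm16894, Slc9a4, Slc9a2 and Tmem182, none with more than 9 counts in a library; Gm16894 is annotated on the opposite strand across the start of Il1r2. With windows of 200 and 1000 kb, 3 of 6 and 4 of 11 genes were called lower in CD4 T cells, and 0 and 1 higher. The lower gene added by the widest window, named after its value was seen, was Rnf149 at -647.7 kb (-0.96 on the log2 scale, edgeR adjusted p 0.0125). The higher gene, named after its value was seen, was Npas2, a transcription factor gene at -1030.8 kb (2.61 on the log2 scale, edgeR adjusted p 0.00809).

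**Figure D4:**
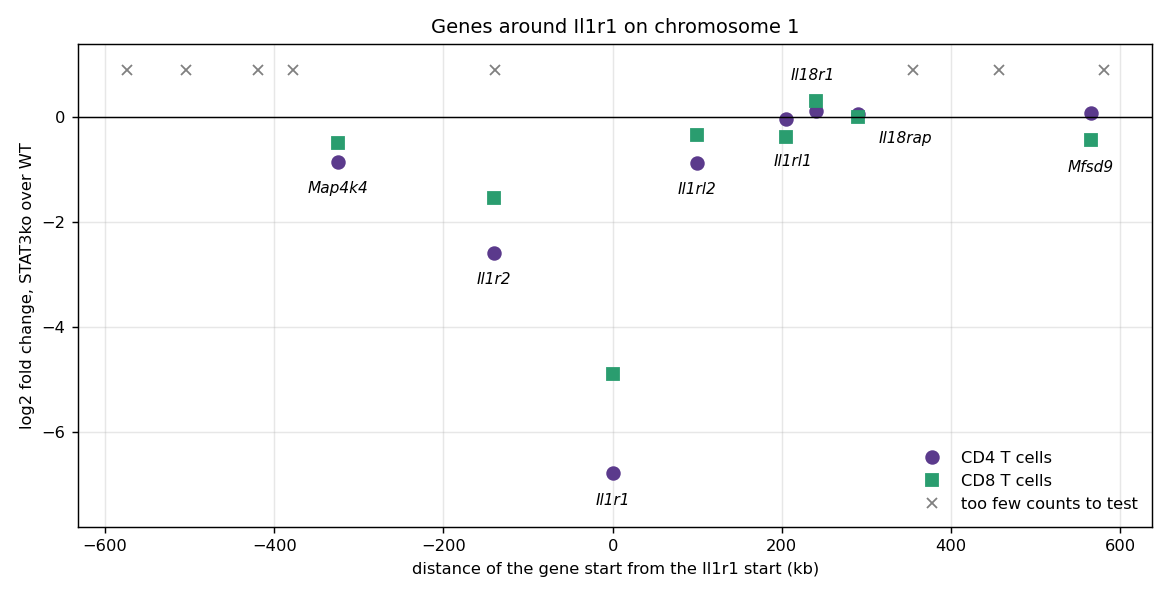
Log2 fold change of STAT3ko over WT (y axis) against the distance of each gene's start from the Il1r1 start in kb (x axis), for CD4 (circles) and CD8 T cells (squares). Il1r1 stands lowest, Il1r2 next at -2.58 and -1.54, the genes from Il1rl1 to Il18rap lie between -0.37 and 0.32, and crosses at the top mark genes with too few counts to test.

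The family was also compared between CD8 and CD4 T cells. Il1r1 again carries no test, since the same libraries chose it, and the 7 relatives were tested. In WT donors, the decoy receptor for IL-1, the receptors for IL-36 and IL-33 and the inhibitory member were lower in CD8 than in CD4 T cells, and the IL-18 receptor chains and Il1rap were not called. This is 4 of 7 relatives called, all lower in CD8. Over all tested genes 23.8% were called and 11.6% were called lower, and the groups did not overlap for 59.3%. This comparison uses the same WT libraries as those of STAT3ko with WT.

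Il1r1, at 78.5 and 101 CPM in WT CD4 against 7.52 and 10.6 CPM in WT CD8 libraries, had a fitted log2 fold change of -3.30, or a 9.88-fold lower level in CD8 T cells. Il1r2, with the values given above, had -2.26 (SE 0.43, edgeR adjusted p 0.00759). Il1rl2 had -1.23 (SE 0.13, edgeR adjusted p 0.000664). For each of these genes both CD8 libraries lay below both CD4 libraries. Sigirr had -0.87 (SE 0.11, edgeR adjusted p 0.00111) and Il1rl1 had -0.43 (SE 0.12, edgeR adjusted p 0.0343), also without overlap. The estimates of Il18r1, Il18rap and Il1rap lay between 0.01 and 0.13. Without WT CD8 replicate 1 the count was 2, with Il1r2 (edgeR adjusted p 0.0524) and Il1rl1 (0.115) no longer called; the call of Il1rl1 was also lost in the fits without WT CD4 replicate 1 (0.11), WT CD4 replicate 2 (0.0661), STAT3ko CD4 replicate 1 (0.0585), STAT3ko CD4 replicate 2 (0.0532) or WT CD8 replicate 2 (0.123).

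In STAT3ko donors, 3 of 7 relatives were called, all lower in CD8 (12.5% of all tested genes were called, 6.67% lower, and the groups did not overlap for 58.3%). Il1rl1 was at 104 and 127 CPM in CD8 against 200 and 191 CPM in CD4 libraries (-0.76 on the log2 scale, SE 0.12, edgeR adjusted p 0.00674). Il1rl2 had -0.69 (SE 0.13, edgeR adjusted p 0.0159) and Sigirr -0.57 (SE 0.11, edgeR adjusted p 0.0143), and in all 3 the groups did not overlap. Il1r2 (-1.22, 95% interval -2.31 to -0.14, edgeR adjusted p 0.137) was not called; DESeq2 called it (adjusted p 0.0365), and so did the fit with the replicate block (edgeR adjusted p 0.00132), which gives 4 of 7 in each, where DESeq2 called 15.9% and the block 29.7% of all tested genes. Without STAT3ko CD4 replicate 1 the count was 0, with 1 gene (Il1rl1) called without STAT3ko CD4 replicate 2, STAT3ko CD8 replicate 1 or STAT3ko CD8 replicate 2.

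**Figure D5:**
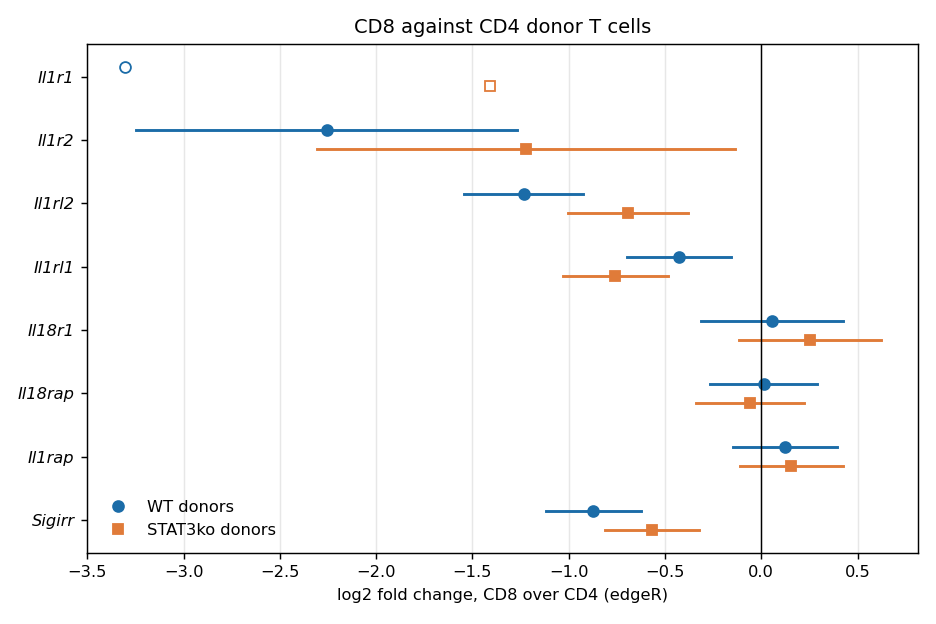
Log2 fold change of CD8 over CD4 (x axis) for each gene (y axis) in WT (circles) and STAT3ko donors (squares), with lines for 95% intervals of the edgeR fit; Il1r1 is drawn hollow without an interval. In WT donors Il1r1 stands at -3.30, Il1r2 at -2.26 and Il1rl2 at -1.23, and the IL-18 receptor chains lie near 0 in both genotypes.

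The other genes of the pathway were taken from a list of 48 genes in 5 groups, of which 38 could be tested. These lists were drawn up with earlier results of these data known. In STAT3ko CD4 T cells 2 were called higher and 3 lower (6 and 9 with the replicate block), and in STAT3ko CD8 T cells 1 was higher and 1 lower (4 and 5 with the block). These counts stand beside 11.6% and 2.07% of all tested genes called in CD4 and CD8, and 30.1% and 18.2% with the block. The remaining relatives Il1rapl1 and Il1rapl2 had no counts in any library. Of the 12 genes of the NF-kB arm, edgeR, DESeq2 and limma on log2(RPKM + 1) called 0 in either subset, with 1 at an unadjusted p under 0.05 in CD4 by each and 0, 0 and 1 in CD8, and the block called 1 higher and 1 lower in CD4. The median of the NF-kB arm on the log2 scale was -0.14 (CD4) and -0.17 (CD8), against 0.02 and -0.01 over all tested genes.

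Within the receptor complex, 2 of 14 testable adaptor and kinase genes fell in STAT3ko CD4 T cells, where 11.6% of all tested genes were called, so the count is not a result about the complex. Irak3, which encodes a negative regulator of IRAK signalling, had 24 and 22.7 CPM in WT CD4 against 15.9 and 14 CPM in STAT3ko CD4 libraries (a log2 fold change of -0.65, edgeR adjusted p 0.0433), and 21.7 and 28.8 CPM in WT CD8 against 8.97 and 9.97 CPM in STAT3ko CD8 libraries (-1.41, edgeR adjusted p 0.0144). Peli1, an E3 ubiquitin ligase of the complex, had 324 and 367 CPM in WT CD4 against 194 and 189 CPM in STAT3ko CD4 libraries (-0.85, edgeR adjusted p 0.00387). In CD8 T cells Peli1 had a log2 fold change of -0.25 (edgeR adjusted p 0.26). The adaptor Myd88 was not called in either subset (log2 fold change -0.28 with edgeR adjusted p 0.42 in CD4 and -0.43 with edgeR adjusted p 0.298 in CD8). With the replicate block, 5 of the 14 genes were called lower in CD4 and 4 in CD8 T cells, Myd88 among the latter. Over all tested genes the block called 30.1% in CD4 and 18.2% in CD8.

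Of the 7 genes of cytokine maturation, Casp1, the protease that cleaves the precursors of IL-1beta and IL-18, rose in both subsets. It had 133 and 137 CPM in WT CD4 against 202 and 235 CPM in STAT3ko CD4 libraries (a log2 fold change of 0.70, edgeR adjusted p 0.00663), and 64.7 and 64.3 CPM in WT CD8 against 97.4 and 105 CPM in STAT3ko CD8 libraries (0.65, edgeR adjusted p 0.0305). Pycard, the inflammasome adaptor, rose in CD4 T cells from 92.4 and 96.9 to 162 and 183 CPM (0.86, edgeR adjusted p 0.00469) and was not called in CD8 T cells (0.40, edgeR adjusted p 0.119), where DESeq2 and the block did call it. Nlrc4, an inflammasome sensor gene, fell in CD4 T cells from 2.15 and 2.98 CPM to 0.900 and 0.823 CPM (-1.57, edgeR adjusted p 0.04).

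The ligand transcripts varied with replicate number. Of the 5 testable ligands and ligand inhibitors, edgeR and DESeq2 called 0 in either subset (1 and 3 at an unadjusted p under 0.05 in CD4, 0 in CD8). In CD4 T cells limma on log2(RPKM + 1) called 1 lower, Il1rn. The fit with the replicate block called 3 higher and 1 lower in CD4 and 2 higher in CD8 T cells. Over all tested genes the block called 30.1% in CD4 and 18.2% in CD8. Between STAT3ko and WT CD4 libraries, Il1rn had log2 ratios of -2.85 and -1.63 at replicate numbers 1 and 2. Il18 had log2 ratios of 1.83 and 1.12 there. Il1b had at most 0.800 CPM in the 4 WT libraries, 0.10 and 6.08 CPM in STAT3ko CD4 and 0.289 and 6.27 CPM in STAT3ko CD8 libraries, and the second library of each STAT3ko group was the high one. The summed level of 8 macrophage and monocyte marker genes was also higher in the second library of every group (20.4 to 54.4 CPM by total counts in the 4 first libraries and 63.7 to 128 CPM in the 4 second libraries), and edgeR, DESeq2 and limma called 0 of these 8 markers between genotypes, with 0 at an unadjusted p under 0.05, while the block called 2 higher in CD4 T cells (Cd14 and Lyz2). Their part in the ligand values was not tested.

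Markers of Th17 cells moved with Il1r1 and Il1r2. Of 5 genes on that list (Il17a, Il17f, Il23r, Ccr6 and Il22), 4 were lower in STAT3ko CD4 T cells, with Ccr6 not called, and 1, Il17a, was lower in STAT3ko CD8 T cells. Over all tested genes edgeR called 11.6% in CD4 and 2.07% in CD8. With the replicate block the counts on the list were 5 and 4, where 30.1% and 18.2% of all tested genes were called. With DESeq2, which called 14.9% and 7.12% of all tested genes, they were 3 and 3. Their summed level was 16 to 18.3 CPM by total counts in WT CD4, 2.90 to 4.69 CPM in STAT3ko CD4, 29.7 to 36.5 CPM in WT CD8 and 6.25 to 11.9 CPM in STAT3ko CD8 libraries, and Il17a was at 0 counts in the first STAT3ko CD4 library. Il1r1 was higher in WT CD4 than in WT CD8 libraries. The summed Th17 markers were lower in WT CD4, but the genes on the list disagreed. Mean CPM in WT CD4 against WT CD8 was lower for Il17a (1.24 against 7.39) and Ccr6 (5.66 against 16.7). It was higher for Il22 (2.34 against 0.192) and close for Il23r (7.05 against 7.79) and Il17f (0.603 against 0.554). The part of the Th17 markers in the fall of Il1r1 and Il1r2 was not tested. Of the 8 regulatory T cell markers, edgeR, DESeq2 and the block called 0 in either STAT3ko contrast, with 0 at an unadjusted p under 0.05 by edgeR. General T cell markers were called for 0 of 10 by edgeR and DESeq2, with 1 at an unadjusted p under 0.05 in CD4 and 0 in CD8, while the block called Cd5 higher and Cd2 lower in CD4 T cells. In CD4 T cells edgeR called 1 B cell marker higher and 1 lower of 3 testable, and 1 NK marker higher of 4 testable. Mast cell and basophil markers, which mark other cells that carry ST2, summed to at most 14.6 CPM in any library. Neutrophil markers, of which 6 were testable, summed to 9.15 and 21.8 CPM in WT CD8 and 5.87 and 6.94 CPM in STAT3ko CD8 libraries, and to 10.7 and 9.70 CPM in WT CD4 and 3.29 and 10.1 CPM in STAT3ko CD4 libraries. The median over the 6 genes was -1.36 (CD8) and -0.68 (CD4) on the log2 scale, against -0.01 and 0.02 over all tested genes. In CD8 T cells edgeR, DESeq2 and limma on log2(RPKM + 1) called 0 of them. At an unadjusted p under 0.05 stood 2, 4 and 3 of the 6, against 2400, 2201 and 2406 of 12428 tested genes. With the block, 3 of these neutrophil markers were called lower (Camp, Ltf and S100a9). Their part in the Il1r2 values was not tested.

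Across the 8 libraries, the transcripts whose log2 CPM followed Il1r1 most closely among the 8758 candidates (mean log2 CPM 3 or more) were Smyd5 (Pearson r 0.995), Klf7 (0.989) and Mri1 (0.986). Their log2 fold changes were smaller than that of Il1r1: -0.84, -0.73 and -0.42 for CD4, and -0.66, -0.49 and -0.29 for CD8. For Il18r1, the most abundant member, they were Zfp809 (0.942), Zfp82 (0.939) and Ttf1 (0.934). Within the family, Il1rl2 and Sigirr ran most alike (r 0.985), then Il1r1 and Il1r2 (0.939). These correlations describe 8 libraries that share 4 group means, and carry no test.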

How the data were processed

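The authors deposited read counts per gene and RPKM values for 8 libraries; the RPKM scale counts by exon length and sequencing depth. Per the study's methods, stranded mRNA libraries were sequenced single-end, aligned with STAR to mm10, counted with HTSeq-count on RefSeq genes and analysed with edgeR; the strand setting of the counting is not given in the sources used here. The labels also name a different library kit and a culture protocol that does not describe T cells.

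Groups were taken from the sample titles. The members and all gene lists were chosen with earlier results of these data known. The text names the 8 members, testable genes of the locus, the called genes of the pathway and Th17 lists, and the 3 genes most alike Il1r1 and Il18r1. 1 gene is not reported here and enters no count or sum. Il1r1 was left out of the tests between CD8 and CD4 T cells, where the design had counted it, because its levels chose the family. In R 4.3.3, counts of 12428 genes that passed edgeR's filterByExpr (minimum count 10) were TMM-scaled and fitted over the 4 groups with edgeR 4.0.16 (quasi-likelihood test, adjusted p under 0.05 over all tested genes). Alternatives used DESeq2 1.42.0, limma 3.58.1 on log2(RPKM + 1) or log2(RPKM + 0.1), other scalings, no filter, the replicate block, 4 libraries, and each library left out. Depth was 20171396 to 23282757 counts, where 3 counts equal 0.129 to 0.149 CPM. On simulated counts for the CD4 contrast, with 12428 genes, 71 of 100 genes changed 2-fold were called.

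The labels do not say what the replicate numbers stand for. Deviations from group means correlated between same-numbered libraries of different groups (r 0.424 to 0.671 over 12428 genes in 6 pairs of groups). The fit with the replicate block therefore treats the numbers as pairing the libraries, from the data and not from a label. The reported edgeR fit holds group means only and does not use this pairing.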

Additional observations from a re-analysis of the deposited data

How the results depend on the processing

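Relatives called in CD8 T cells numbered 0 in the reported fit, 1 with DESeq2, 1 without a filter on low counts (Il1r2) and 3 with the replicate block. Relatives called between CD8 and CD4 in STAT3ko donors numbered 3, and 4 with DESeq2 or the replicate block; the block changed no other count of relatives called. Over all genes the block raised the calls from 1444 to 3747 in CD4 and from 257 to 2258 in CD8 (DESeq2 885), from 0 to 403 for the interaction (DESeq2 188, limma on log2(RPKM + 1) 13), and from 2960 to 5232 and 1555 to 3689 between subsets in WT and STAT3ko donors. With each library left out in turn, where the lone library of a group is assumed to vary like the others, the relatives called in CD4 ranged from 1 to 3, the relatives called between subsets from 2 to 4 in WT and from 0 to 3 in STAT3ko donors. Among the estimates of single members, those of Il18rap, Il18r1 and Il1rap changed sign. Il18rap in CD8 was -0.038 with total counts, -0.0038 without a filter and -0.011 with limma at either pseudocount, and its difference between subsets in WT was -0.0020 without a filter. With a library left out, Il18rap ranged from -0.025 to 0.14 (CD4), -0.14 to 0.12 (CD8), -0.21 to 0.072 (interaction), -0.078 to 0.071 (subsets, WT) and -0.21 to 0.071 (subsets, STAT3ko), Il18r1 from -0.077 to 0.28 (CD4) and -0.079 to 0.17 (subsets, WT), and Il1rap from -0.0061 to 0.21 (CD8) and -0.064 to 0.14 (interaction). The Il1r1 change was -4.01 (CD4) and -1.39 (CD8) on the log2(RPKM + 1) scale and -6.10 and -3.61 on the log2(RPKM + 0.1) scale, since a pseudocount compresses low values. The cause of the other shifts was not tested.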
